A study of Rattus norvegicus with 2 samples.

Results

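The 5 genes described here belong by name to families of proteins that hold metal ions. They are the metallothioneins Mt1m, Mt2A and Mt3, and the ferritin subunits Ftl1 (light chain) and Fth1 (heavy chain). RefSeq lists Mt1m as a pseudogene. All 5 were chosen by name from the 5147 gene symbols on the array. Every probe set whose platform annotation held a member symbol, alone or among several, was kept. That gave 5 of the 8740 non-control probe sets. The genes were put forward with their high-salt over low-salt ratios already known, so these ratios describe the 2 arrays and test nothing.

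Heart RNA came from male rats of the Dahl salt-sensitive strain, in which dietary salt raises blood pressure, at 17 weeks of age. The high-salt array held RNA of a rat, or rats, on a high-salt diet with chronic heart failure, and the low-salt array RNA of the same strain, sex and age on a low-salt diet, for which the labels name no disease. Both carry the same salt-sensitive background and no transgene or drug is named. How many animals each RNA came from, the part of the heart, the salt content and the length of the diet are not stated in the labels. A single array per diet leaves no replicate spread to compare with, so no p-value was computed and the number of arrays limits the precision.

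Metallothioneins are small, cysteine-rich proteins that bind zinc and copper. The genes of the broadly expressed forms, Mt2A among them, are switched on by zinc through the transcription factor MTF1, which binds metal response elements. Glucocorticoids, interleukin-6 and oxidants also switch them on. Ferritin is a hollow shell of heavy and light chains that stores iron: the heavy chain oxidises the iron and the light chain favours its deposition as mineral. Ferritin synthesis is held back at the messenger RNA by iron regulatory proteins when iron is scarce, so a transcript level is not a protein level. In the heart, ferritin limits free iron, which would otherwise drive oxidant damage.

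In the high-salt heart the probe set shared by Mt1m and Mt2A and both Ftl1 probe sets read about 2-fold higher, whereas Fth1 read 1.15-fold higher and Mt3 was too dim to give a ratio. The upstream sequences are shown because metal response elements act in the promoters of Mt1 and Mt2A. For Mt3 no such action is assumed. In the RefSeq gene table of the rat (assembly GRCr8), Mt1, Mt2A, Mt3 and Mt4 follow each other on chromosome 19 with no other annotated gene between them, and all are protein-coding. The same table lists Mt1m as a pseudogene, so Mt2A is the protein-coding gene of the pair that shares the probe set. The 250 bases before the annotated transcript start of Mt2A (chr19:10838709-10838958), Mt3 (chr19:10856081-10856330) and the neighbour Mt1 (chr19:10832976-10833225), all on the minus strand of GRCr8 and read in the direction of transcription, are given from RefSeq. Capitals mark each match, on either strand, to the metal response element core, searched as TGCACNC and TGCGCNC, and to the antioxidant response element core, searched as TGACNNNGC.
Mt2A: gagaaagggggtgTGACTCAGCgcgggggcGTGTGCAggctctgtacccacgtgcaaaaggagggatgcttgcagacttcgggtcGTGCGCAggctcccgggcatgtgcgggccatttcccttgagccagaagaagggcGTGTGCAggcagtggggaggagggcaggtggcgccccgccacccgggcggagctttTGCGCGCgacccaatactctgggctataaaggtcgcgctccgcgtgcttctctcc
Mt3: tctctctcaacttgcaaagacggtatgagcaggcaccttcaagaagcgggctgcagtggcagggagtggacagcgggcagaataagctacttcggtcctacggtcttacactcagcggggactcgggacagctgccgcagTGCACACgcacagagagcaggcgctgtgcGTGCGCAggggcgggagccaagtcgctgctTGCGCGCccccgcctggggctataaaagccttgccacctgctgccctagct
Mt1: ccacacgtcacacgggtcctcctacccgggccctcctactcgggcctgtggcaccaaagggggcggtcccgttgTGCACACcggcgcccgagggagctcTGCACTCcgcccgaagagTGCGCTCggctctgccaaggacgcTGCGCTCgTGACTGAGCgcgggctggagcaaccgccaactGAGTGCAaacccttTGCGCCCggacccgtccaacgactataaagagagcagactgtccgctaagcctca

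Mt2A held 4 matches to the metal response element core and Mt3 held 3, against 6 in Mt1. At least 1 such match was present in 20.6% of the 33469 rat promoters of the same length. At least 4 were present in 0.266% of them, at least 3 in 1.17% and at least 6 in 0.0269%. In Mt2A the match nearest to the start lay at base -55, and the others, at bases -111, -165 and -220, were on the opposite strand. The Mt3 matches lay at bases -51, -81 and -110. The antioxidant element core was found 1 time in Mt2A, at base -237, and 1 time in Mt1, at base -101, and these letters were not in the Mt3 window. That core was present in 10.1% of all promoters. No match overlapped another, and a match is a description of the letters and not a site shown to be bound.

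**Figure D1:**
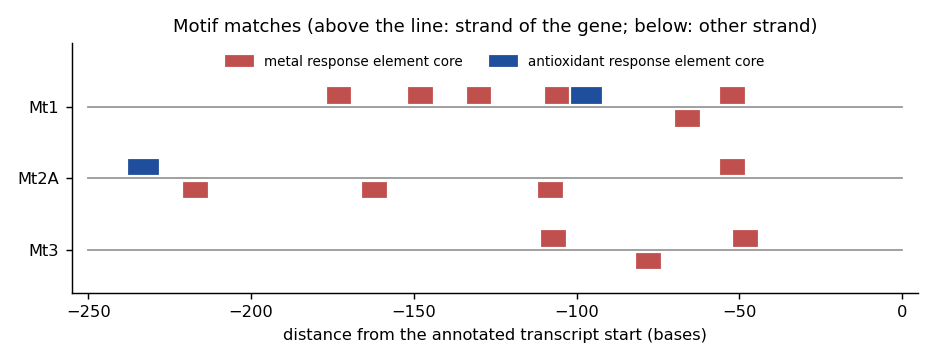
Positions of motif matches in the 250 bases before the transcript start of Mt1, Mt2A and Mt3. The horizontal axis is the distance from the start in bases; red blocks are metal response element cores and blue blocks antioxidant response element cores, above the line on the strand of the gene and below it on the other strand. Mt1 has 6 red blocks, Mt2A has 4 and Mt3 has 3, and Mt3 has no blue block.

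On each array, 27.3% of the probe sets read below 0, and the size of those values was used as a rough guide to how far off a low reading can be. Some repeated closely between the arrays, as in an A2m probe set at -611.5 with high salt and -589.7 with low salt. Others did not, as in a Sod1 probe set at -96.4 and -10.9. Their size is therefore not a measure of random noise alone. The 95th percentile of that size, 126.4, was taken as a noise floor. No detection call from the array software was at hand, and the floor only takes its place. A ratio was taken after raising both readings to the floor, and none was given where neither reached it. In all, 1955 probe sets reached the floor on at least 1 array, and the 2% trimmed mean intensities were 99.2 on both arrays. Among 231 genes with several probe sets above the floor on both arrays, probe sets of the same gene had log2 ratios that varied with an SD of 0.22, an error that holds no variation between animals. Of 9 cardiomyocyte markers on the array 8 reached the floor. With 1 probe set kept per gene their median log2 ratio was -0.06 and none was past 2-fold. Some probe sets not kept differed more. A second Myh7 probe set, X15939_i_at, was 2.08-fold higher. Further Myh6 probe sets were 1.92-fold lower (1706.2 with high salt against 3276.7 with low salt) and 1.43-fold lower (1673.2 against 2398.5).

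The probe set shared by Mt1m and Mt2A read 481.3 with high salt and 233.4 with low salt. Both readings lay above the noise floor, at 3.81 and 1.85 times it. The ratio was 2.06-fold, or 1.04 on the log2 scale. That is 4.69 times the SD among probe sets of a gene. The SD holds no variation between animals and the ratio was known beforehand, so the multiple tests nothing. Of the 1955 measured probe sets, 59 had a higher ratio. The low-salt reading is the limiting one: with the floor moved to 271.2 it fell under the floor and the log2 ratio became a bound of 0.83.

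Mt3, a metallothionein best known from brain, read 55.3 with high salt and 78.4 with low salt. Both readings were under the noise floor, so no ratio was taken and their order is not interpreted. None of the 7 brain and nerve markers on the array (Snap25, Syn1, Mbp, Map2, Nefl, Nefm and Syt1) reached the floor on either array.

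Mt1, the neighbour of Mt2A and the other broadly expressed metallothionein, was read by a probe set annotated to Mt1f, Ttr and Mt1 together. It is no member by name but bears on the Mt2A result. It read 290.7 with high salt against 398.6 with low salt, 1.37-fold lower, with a log2 ratio of -0.46. The ratios of the shared Mt1m and Mt2A probe set and of this one thus differed 2.83-fold and lay on opposite sides of 1. Ttr encodes the plasma carrier transthyretin, and its own probe sets went the other way, at 282.3 against 141.3 and 157.9 against 66.1. Which of the 3 genes gave the signal of the shared probe set was not tested.

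The ferritin light chain had 2 probe sets, both named for the same source sequence, so they are not independent readings. The brighter probe set read 1214.7 with high salt and 548.7 with low salt, a 2.21-fold difference (log2 ratio 1.15). The dimmer probe set read 617.2 against 304.8, a 2.02-fold difference (log2 ratio 1.02). All 4 readings were at least 2.41 times the noise floor, and the log2 ratios differed by 0.13. As the source sequence is shared, this closeness is no measure of precision. Of all measured probe sets, 45 had a higher ratio than the brighter and 65 a higher ratio than the dimmer.

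These probe sets cannot be assigned to 1 locus. The brighter was annotated with 9 symbols, of which 8 are protein-coding in RefSeq, and the dimmer with 8. Besides Ftl1 they are the Ftl1-like genes Ftl1l1, Ftl1l2 and Ftl1l5, the loci LOC100362384 and LOC100360087, the pseudogene Ftl1-ps14 and Ripor2, a gene unrelated to ferritin by name. The brighter also lists Ftl1l7. The signal is therefore described as that of the Ftl1 family.

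The ferritin heavy chain probe set, shared by Fth1 and the pseudogene Fth1-ps5, read far above the floor, at 18.3 and 15.9 times it. It read 2312.2 with high salt and 2006.7 with low salt, 1.15-fold higher, with a log2 ratio of 0.20. That ratio is 0.92 times the SD among probe sets of a gene, and 496 measured probe sets had a higher one. The light chain ratio exceeded the heavy chain ratio by 0.94 on the log2 scale for the brighter and by 0.81 for the dimmer Ftl1 probe set. The SD among probe sets of a gene is the spread of single ratios about their gene's mean, so it is no yardstick for these gaps. The member ratios were known beforehand, so the gaps test nothing. With 1 array per diet the gap between the chains could not be tested over animals.

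**Figure D2:**
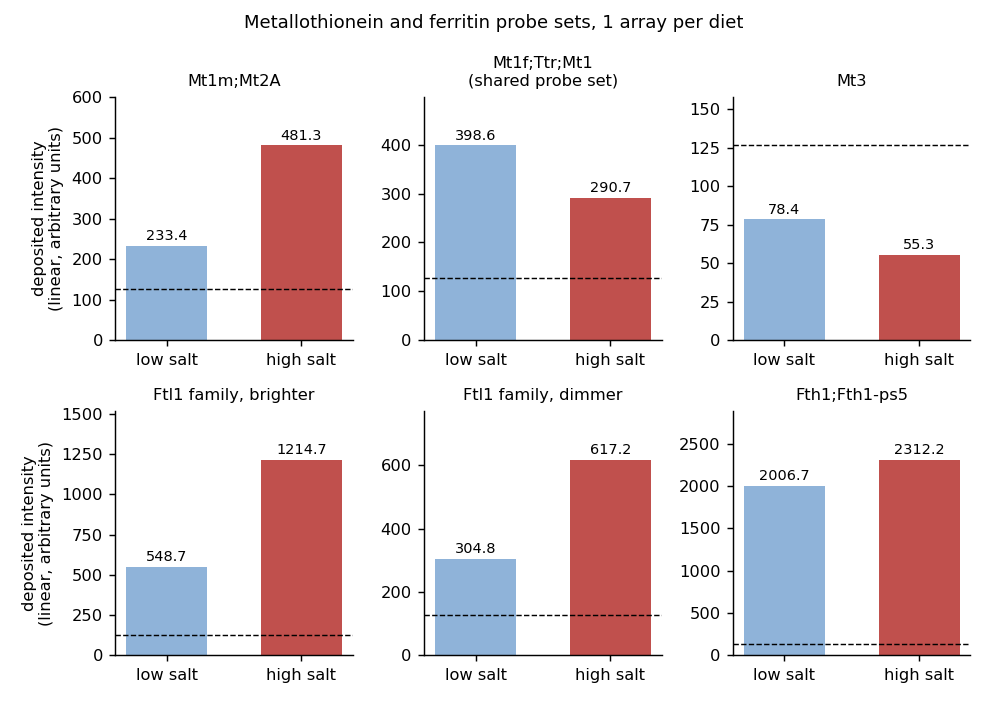
Deposited intensity of each probe set on the low-salt (blue) and high-salt (red) array, with 1 array per diet and no error bars; each panel has its own linear axis from 0, and the dashed line is the noise floor of 126.4. The Mt1m and Mt2A bar rises from 233.4 to 481.3 and both Ftl1 family bars rise by about 2-fold, Fth1 differs little, the probe set shared with Mt1 is lower, and Mt3 stays under the line.

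Of the 5 member probe sets, 4 reached the noise floor on both arrays and 3 of them were higher by 2-fold or more with high salt, the exceptions being Fth1 and the dim Mt3. None was at least 2-fold lower. Over all 1955 measured probe sets, 3.53% were at least 2-fold higher and 1.69% at least 2-fold lower. The median log2 ratio of the 4 measured member probe sets was 1.03, beside -0.04 over all measured probe sets, whose quartiles were -0.28 and 0.21. The members were chosen on this same contrast, so nothing is read from the difference between these figures. The 3 higher probe sets lay close to the threshold, with log2 ratios from 1.02 to 1.15.

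**Figure D3:**
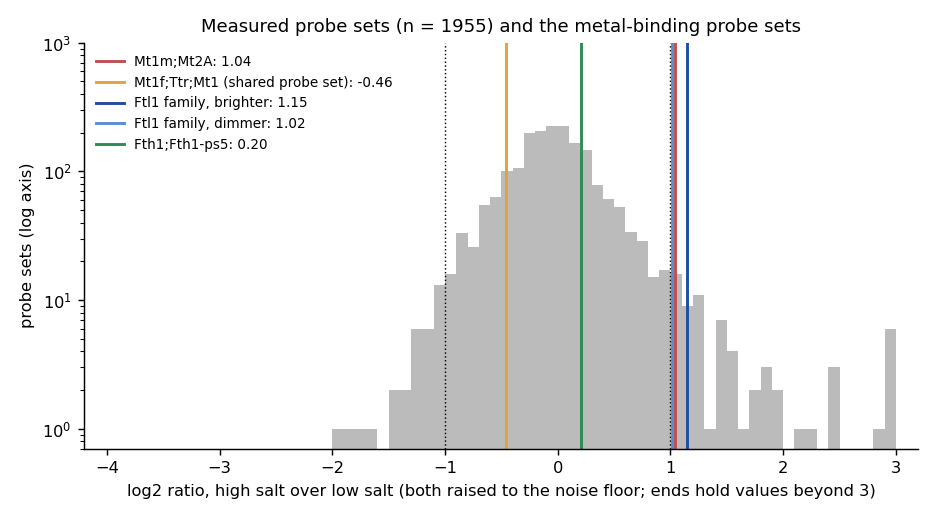
Distribution of the log2 ratio, high salt over low salt, over the 1955 probe sets that reached the noise floor on an array (grey bars, counts on a log axis), with the metal-binding probe sets as coloured lines and 2-fold as dotted lines. The lines of the Mt1m and Mt2A probe set (1.04) and of both Ftl1 family probe sets (1.15 and 1.02) stand just past 2-fold, Fth1 (0.20) stands near the bulk, and the probe set shared with Mt1 (-0.46) stands below 0.

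Since only 2 arrays exist, likeness between genes can be read only from the ratio. Among genes with a probe set of their own above the floor on both arrays, the 5 nearest in log2 ratio to the Mt1m and Mt2A probe set were Csrp3 (2331.6 against 1135.3), Myh7 in its X15939_i_at probe set (4125.1 against 1988.0), Cdh2 (346.7 against 169.6), Ppp1ca (295.0 against 145.5) and Ier3 (265.3 against 131.6). Those nearest to the brighter Ftl1 probe set were Mfge8 (725.9 against 328.6), Grn (921.6 against 424.4), Nppb (2104.3 against 927.2), Atp6ap1 (406.1 against 190.9) and Capg (399.7 against 188.3). Mfge8 is a bridging protein for the uptake of dying cells, Grn encodes the lysosomal protein progranulin, Atp6ap1 is an accessory subunit of the vacuolar proton pump, Nppb encodes brain natriuretic peptide and Capg caps actin filaments. Those nearest to Fth1 were Dnaja4, Hnrnpab, Nucb1, Btg1 and Ncl, within 0.00212 of its log2 ratio. A shared ratio over 2 arrays is a coincidence of 1 number each and says nothing of shared control.

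The other genes that move, sense or use iron, zinc and copper were mostly too dim to read. Of 82 genes in these lists, 29 had a probe set of their own and 8 were measured. Of those 8, Alas2 was at least 2-fold higher and none was at least 2-fold lower, and the median log2 ratio was -0.15. Over all 1216 measured genes the shares were 3.54% higher and 1.89% lower, and the median was -0.04.

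In iron uptake and export, all 7 genes with a probe set of their own were under the floor on both arrays, among them Tfrc, the transferrin receptor, at 35.7 against 42.8, and Slc40a1, the iron exporter ferroportin. Tf, the plasma iron carrier transferrin, shared its probe sets with Srprb, and the brightest read 277.7 against 335.5. Among genes that sense iron or turn ferritin over, Ncoa4, the receptor that delivers ferritin to lysosomes for iron release, read 203.8 against 106.1. The low-salt reading was under the floor, which makes it at least 1.61-fold higher. The iron regulatory proteins Aco1 (78.3 against 108.6) and Ireb2 (34.8 against 47.3) were under the floor.

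Haem genes did not share a direction. Alas2, which starts haem production in developing red cells, read 698.0 against 104.5 and was at least 5.52-fold higher. Alas1, the form of that enzyme used in other tissues, read 265.2 against 412.1, 1.55-fold lower, and its second probe set read 238.1 against 373.4. Urod, a later enzyme of the pathway, read 103.6 against 145.9. Hmox1, which releases iron from haem and is often induced with ferritin, had a brighter probe set at 115.2 against 77.6, under the floor on both arrays.

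In mitochondria, Fdx1, an iron-sulphur electron carrier, read 410.0 against 408.0, and Hspa9, a chaperone of iron-sulphur cluster transfer, 459.5 against 597.1. Of the copper genes, Sod1, the copper-zinc superoxide dismutase, read 1353.8 against 1471.9 and its extracellular relative Sod3 186.7 against 211.3. The copper pumps Atp7a and Atp7b were at or below 0 on both arrays. The zinc transporters Slc30a1, Slc30a2 and Slc30a4 were all under the floor. Slc30a1, which like Mt1 and Mt2A is a target of MTF1, read 29.0 against 34.1.

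Genes that respond to the known inducers of metallothionein and ferritin also went both ways. Of 40 genes in the oxidant, glucocorticoid and interleukin-6 lists, 30 were on the array and 11 were measured, with 2 at least 2-fold higher and 1 at least 2-fold lower. Over all 1216 measured genes, 3.54% were higher and 1.89% lower. The median log2 ratio of these 11 genes was 0.02. All 3 measured interleukin-6 genes had ratios above 1, with a median of 0.30, among them Timp1 (258.0 against 209.1). Of 6 measured glucocorticoid genes, 4 had ratios below 1, and the median was -0.42. Of 2 measured oxidant genes, 1 was above 1 and 1 below. Reg3b, a secreted lectin downstream of STAT3, read 1306.8 against 32.0 and Hsd11b1, which regenerates active glucocorticoid in the cell, 413.9 against 149.9. The glucocorticoid-responsive genes Pdk4 (85.6 against 307.3), Dusp1 (137.0 against 254.9) and Nfkbia (174.0 against 283.5) were lower, by at least 2.43-fold for Pdk4, by 1.86-fold for Dusp1 and by 1.63-fold for Nfkbia. Of the oxidant genes, Txnrd1, a thioredoxin reductase, read 220.2 against 143.6 and catalase, Cat, 418.9 against 565.1. Nqo1, Gclm and Gclc were under the floor. The glucocorticoid receptor gene Nr3c1, Il6 and Socs3 were also under the floor, and Stat3 (128.0 against 42.2) barely reached it with high salt, which gives a bound of at least 1.01-fold higher.

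Of the markers of cells other than cardiomyocytes, those of red blood cells were higher as a whole list, and the other lists were mixed or mostly under the floor. In a bulk RNA sample, more cells of a type and more RNA per cell cannot be told apart. Red cell precursors and macrophages both handle much iron and express ferritin. All 4 measured red blood cell markers of the 4 with a probe set of their own were higher by 2-fold or more with high salt. Over all 1216 measured genes, 3.54% were. The median log2 ratio of the 4 markers was 1.78, and their summed intensity was 8691.8 against 3287.7. They were Hbb (6982.3 against 2910.5), Hba-a3 (746.9 against 152.9), Alas2, described with the haem genes, and Slc4a1 (264.6 against 119.8), and none was at 0. The low-salt Slc4a1 reading was under the floor, so its ratio is a bound. Another Slc4a1 probe set read 168.3 against 174.8. Globin probe sets of several symbols were under 2-fold. That of Hba-a1 and Hba-a2 read 6905.7 against 3600.9, 1.92-fold higher, and the brightest of the Hbb family 3526.6 against 2879.3, 1.22-fold higher. With probe sets of several symbols included, the median was 1.16.

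The counts past 2-fold in the lists below stand beside 3.54% higher and 1.89% lower over all measured genes. Of 6 macrophage markers, 3 were measured and Lyz2, lysozyme, was at least 2-fold higher at 458.6 against 130.4. Cd14 read 149.1 against 128.7 and Ctss 135.3 against 94.4, the low-salt Ctss reading being under the floor. Csf1r, Itgam and Aif1 were under the floor on both arrays. The summed intensity of the list was 766.5 against 405.5. Of 8 fibroblast markers, 5 were measured and S100a4 alone passed 2-fold (461.8 against 99.8), with a median of 0.51, sums of 4065.7 and 3029.8, and Tcf21 below 0 on both arrays. Vim (975.5 against 564.8) and Col1a1 (1169.7 against 823.3) had ratios above 1, and Pdgfra (140.0 against 158.6) and Dcn (1364.9 against 1443.6) ratios below 1. Of 4 endothelial markers, Flt1 was the measured member (121.3 against 127.9). Liver and plasma markers, whose organ is rich in metallothionein and ferritin, had 2 of 7 genes measured, with summed intensities of 534.1 and 356.6. Both had ratios above 1: Ttr, given with Mt1, was 1.998-fold higher, just under the threshold, which 1 of the 2 genes passed under quantile normalization and under loess, and Apoc3 read 177.0 against 144.5. Alb, Apoa1, Apoa2, Serpina1 and Fabp1 were under the floor. The part of these cells in the Mt2A and Ftl1 results was not tested.

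**Figure D4:**
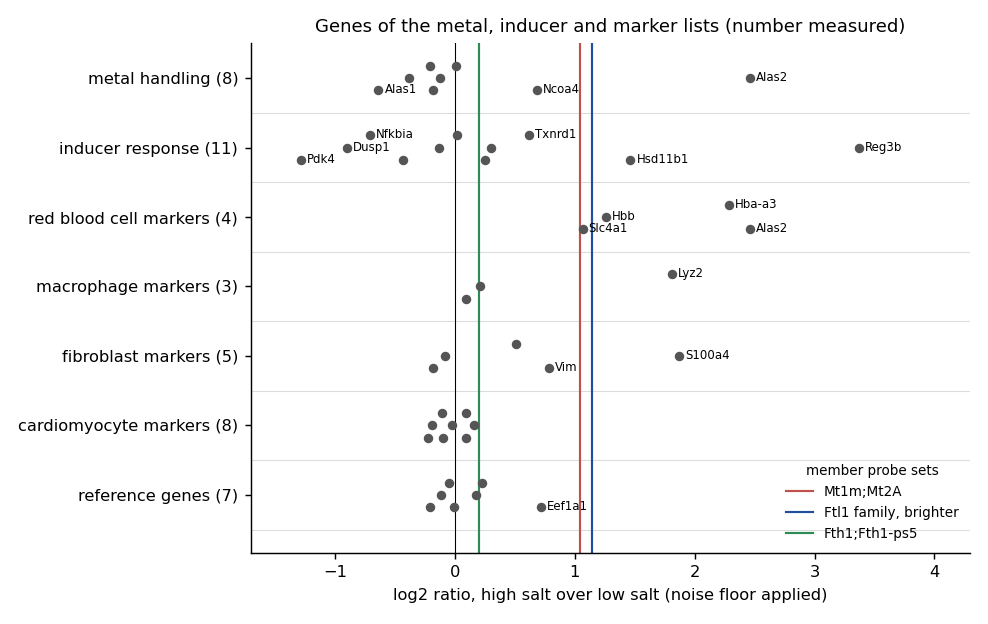
Log2 ratio, high salt over low salt, of every measured gene in the metal handling, inducer response, red blood cell, macrophage, fibroblast, cardiomyocyte and reference lists (grey points, 1 probe set per gene, vertical offset within a row only for legibility; the number measured is in brackets), with the Mt1m and Mt2A, brighter Ftl1 and Fth1 probe sets as coloured lines. The red blood cell markers lie at or to the right of the Mt1m and Mt2A line, the cardiomyocyte markers lie around 0, and of the metal handling genes Alas2 alone lies beyond 1.

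Reference genes gave a limited view of the differences between the arrays. Of 7 measured, none reached 2-fold, the median log2 ratio was -0.01 and the ratios ran from -0.20 for Actb to 0.72 for Eef1a1, a translation factor. The Fth1 ratio of 0.20 lay within that range, and the Mt1m and Mt2A and both Ftl1 ratios lay above it. The range of these 7 genes is not the spread of the array, where 3.53% of measured probe sets were at least 2-fold higher. The member ratios were known beforehand, so their place beside this range tests nothing.

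The member ratios changed little with scaling. The other floors could not change the Ftl1 and Fth1 ratios, since all their readings lay above each floor. Over 8 scalings and floors the brighter Ftl1 ratio ran from 1.11 to 1.19, the dimmer from 0.98 to 1.07, Fth1 from 0.15 to 0.25 and the Mt1m and Mt2A probe set from 0.83 to 1.10. The dimmer Ftl1 probe set went under 2-fold when the arrays were scaled to a common median above the noise floor.

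**Figure D5:**
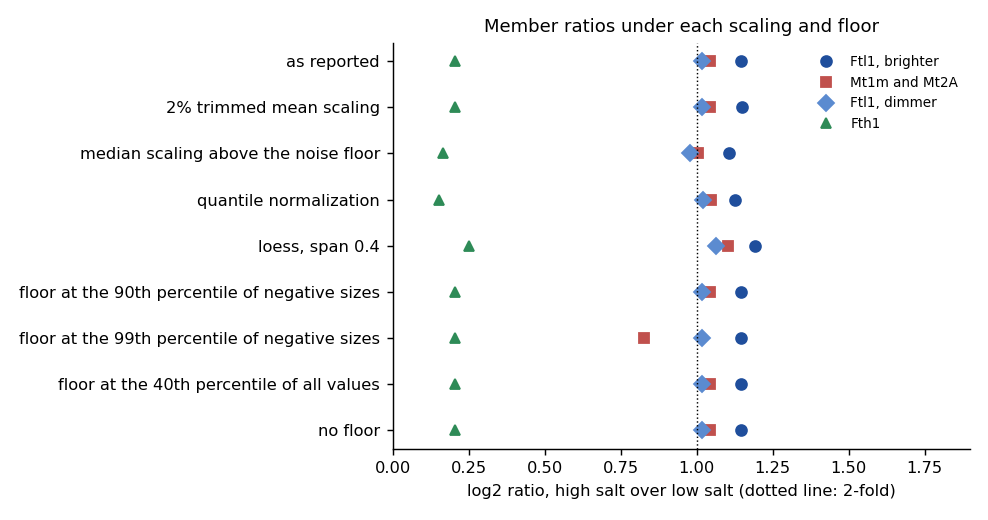
Log2 ratio, high salt over low salt, of the 4 measured member probe sets as reported and under 8 other scalings and floors; each point is 1 probe set under 1 setting and the dotted line is 2-fold. The brighter Ftl1 points lie between 1.11 and 1.19 throughout, the Mt1m and Mt2A point falls to 0.83 under the highest floor, and the Fth1 points lie between 0.15 and 0.25.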

How the data were processed

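Per the labels' protocols, biotin-labelled cRNA was made from the heart RNA and fragmented before hybridisation. The authors deposited 1 linear intensity per probe set and array; the labels name no software or settings. The near-equal trimmed means are what scaling before deposit would give, but the labels do not state it. Values were used as deposited. Names came from a platform annotation dated 2016: 7006 had 1 symbol, 308 several and 1426 none. All 17 symbols on the member and Mt1 probe sets matched the RefSeq table (GRCr8) by gene ID. For lists, genes were taken from probe sets of 1 symbol, keeping per gene the probe set of highest mean log2 intensity. Members, lists and the noise floor were chosen with earlier results of these data known. Named genes were all member probe sets, list genes past 2-fold, up to 4 others per list by size of ratio, those needed for markers, and the 5 nearest in ratio; dim list genes such as Hmox1 were added after their values were seen. Steps were tested on simulated arrays. Python 3.11.15, numpy 2.4.6, pandas 2.3.3, statsmodels 0.14.6 and matplotlib 3.10.9 were used.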

Additional observations from a re-analysis of the deposited data

How the results depend on the processing

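No paired analysis was possible because each diet has 1 array. Of 56 member values under the alternatives, 54 stayed within the SD among probe sets or within 1.5 times the count, as did 111 of 126 list values. None of the 4 measured member probe sets had a ratio below 1 under any scaling. A floor cannot move a ratio across 1, and no floor changed the Fth1 or Ftl1 ratios. Part of this stability was therefore fixed in advance. The count of member probe sets at least 2-fold higher, 3 as reported, was 0 at a 3-fold threshold and 0 with probe sets of 1 symbol alone, since Mt3 is then the only member left; it was 2 with median scaling, with the floor at 271.2 or without the shared or reduced probe set codes. With the floor at 10.9 or none, Mt3 had a log2 ratio of -0.50, from readings under the floor of 126.4. For metal handling genes, the count at least 2-fold higher was 2 with the floor at 10.9, and at 1.5-fold 2 were higher and 1 lower. For inducer response genes, the median was 0.28 with the floor at 84.9 or 10.9 and 0.30 with none. Of these genes, 1 was higher and 0 lower with the floor at 271.2, 5 and 2 with it at 10.9, and 4 and 3 with none, and 3 were lower at 1.5-fold. The red blood cell median was 1.36 with the floor at 271.2 and 1.16 with probe sets of several symbols. A higher floor both leaves genes out and raises their lower readings.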

Other observations

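Probe sets annotated to several genes, as 4 of the 5 metallothionein and ferritin probe sets are, can be compared with the rest of the array. Of 146 measured probe sets with several symbols, 5.48% were past 2-fold in either direction, beside 5.54% of the 1589 with 1 symbol. By direction the shares differed: 4.79% against 3.59% were higher and 0.685% against 1.95% lower. The chosen members are included in these shares and were picked on this contrast, so nothing is read from the difference by direction. The median log2 ratios were 0.01 and -0.05. Of those with several symbols, 7 were at least 2-fold higher and 1 at least 2-fold lower; the shared Mt1m and Mt2A probe set and both Ftl1 family probe sets are among the 7.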
